A study of Mus musculus with 6 samples.

Results

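The 9 genes described here, Car3, Fabp4, Cidec, Adipoq, Retn, Plin1, Plin4, Lep and Lipe, are genes of the fat cell: an abundant cytosolic enzyme, a fatty acid carrier, 3 proteins of the lipid droplet surface, 3 secreted hormones and a lipase. They were chosen by name because several of them stood out in this same comparison of tumor sites, so their differences between sites are given as a description. Where the fit over all genes is quoted for them, its calls are counted and nothing is read from them. All 9 were measured, each by a single transcript cluster paired with that gene alone, among 19938 genes on the array. The tumors had grown in BALB/c mice from Renca cells, a BALB/c line derived from a renal carcinoma. In the intrakidney group (n = 3) the cells had been injected into the outer cortex of the kidney, and in the subcutaneous group (n = 3) they had been injected under the skin. Both groups received the same cells and no other agent named in the labels, and every tumor came from a separate mouse and was taken on day 12. The sources used here gave no age, sex or number of injected cells. The study asked how the site of growth is reflected in the RNA of the tumor.

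Fat cells store triglyceride in a lipid droplet. Perilipins coat the droplet and hold back lipolysis, CIDEC promotes the fusion of droplets, hormone-sensitive lipase (Lipe) breaks down diglyceride when adrenergic signals arrive, and FABP4 carries the released fatty acids through the cytosol. Mature fat cells also secrete adiponectin (Adipoq), leptin (Lep) and, in mice, resistin (Retn). Several of these genes are also used elsewhere: Fabp4 in macrophages and capillary endothelium, Car3 in hepatocytes and slow muscle fibers, Plin4 in muscle, and Lipe in steroid-producing cells. A kidney lies in perirenal fat, and the skin lies on a subcutaneous fat layer.

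The promoters of the members that stood higher in intrakidney tumors (Cidec, Adipoq and Retn) and of members that did not (Plin1 and Lep) are shown, so that fat cell promoters with unlike readouts can be read side by side. The sequences are RefSeq's on GRCm38.p6, whose promoter table held 7 of the 9 genes (Plin4 and Lipe also among them) and not Car3 or Fabp4. Each is the run of 150 bases that ends just before the annotated start site, written 5′ to 3′ on the strand of the gene, and the capitals mark matches to the loose C/EBP pattern TTNNGNAA on either strand.
Cidec, chr6:113435761-113435910, minus strand: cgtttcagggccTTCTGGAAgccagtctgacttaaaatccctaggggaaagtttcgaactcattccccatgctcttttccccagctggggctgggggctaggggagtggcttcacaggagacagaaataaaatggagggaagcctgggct
Adipoq, chr16:23146386-23146535, plus strand: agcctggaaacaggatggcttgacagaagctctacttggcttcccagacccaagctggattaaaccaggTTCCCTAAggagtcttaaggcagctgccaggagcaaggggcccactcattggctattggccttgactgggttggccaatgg
Retn, chr8:3655620-3655769, plus strand: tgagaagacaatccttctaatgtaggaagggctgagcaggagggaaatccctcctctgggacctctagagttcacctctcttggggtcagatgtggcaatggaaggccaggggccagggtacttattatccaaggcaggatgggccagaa
Plin1, chr7:79732777-79732926, minus strand: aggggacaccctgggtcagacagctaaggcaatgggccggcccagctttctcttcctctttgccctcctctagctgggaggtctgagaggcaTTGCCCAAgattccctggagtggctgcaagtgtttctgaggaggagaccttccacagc
Lep, chr6:29060071-29060220, plus strand: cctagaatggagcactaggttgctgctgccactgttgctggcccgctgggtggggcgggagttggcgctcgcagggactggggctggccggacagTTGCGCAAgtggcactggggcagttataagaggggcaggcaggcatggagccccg

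C/EBP and PPAR-gamma are the transcription factor families that drive fat cell genes. The 7 genes had 9 promoters in the table, with more than 1 for Cidec and for Lipe. In the 250 bases before the start site, the loose C/EBP pattern TTNNGNAA matched in 5 of these 9 promoters. They belong to 4 of the 7 genes, Cidec, Adipoq, Plin1 and Lep. The pattern is frequent, with 36.8% of the 32851 promoters in the table holding it. The full palindrome TTGCGCAA, which is 1 form of the loose pattern, was held by 0.164% of promoters and among the 7 genes matched in Lep alone, with its first base 55 bases before the start site. The DR1 element bound by PPAR-gamma with RXR, searched as 2 AGGTCA half-sites in the same direction with 1 base between them, is held by 0.0335% of promoters, and by 0.338% when the middle T of AGGTCA may be any base (AGGNCA). Neither form matched in any of the 7 genes. The TATA box letters TATAAA (12.4% of promoters) did not match either. All searches covered both strands. Matches therefore occurred in genes with and without a difference between sites, and a missing match says only that these letters are not in this window.

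The 9 genes did not move as a block. Car3, Fabp4, Adipoq, Cidec and Retn were higher in all 3 intrakidney tumors than in any subcutaneous tumor. Plin1, Lep and Lipe overlapped between the sites, and Plin4 was slightly lower in all 3 intrakidney tumors. The values below are log2 RMA values, in which a difference of 1 is a doubling, and differences are intrakidney minus subcutaneous. Levels of different genes are not compared, because probe brightness differs between transcript clusters. The tissue was measured whole, so that more fat cells, more RNA per cell and RNA of other cell types cannot be told apart.

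**Figure D1:**
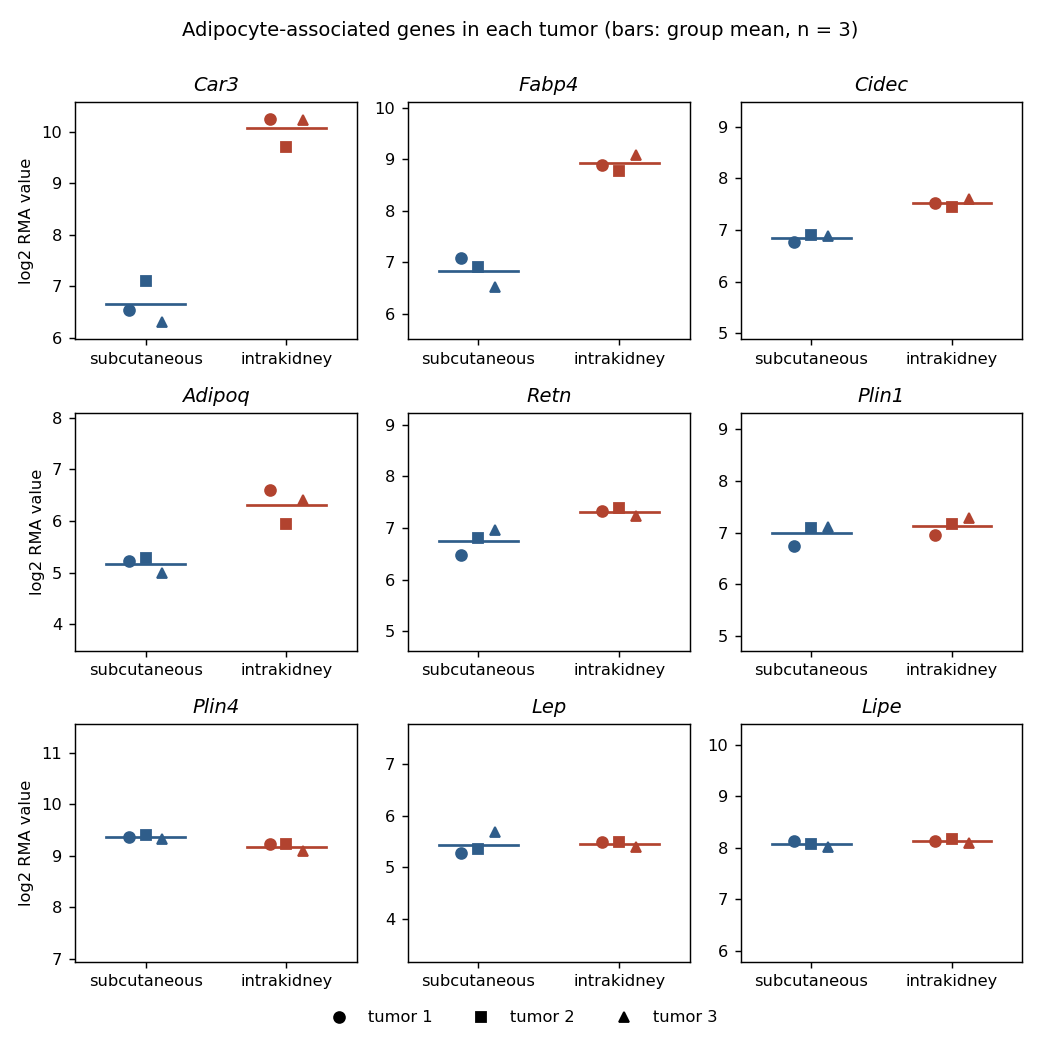
Log2 RMA value of each of the 9 genes in each tumor, with subcutaneous tumors in blue, intrakidney tumors in red, symbols for tumor number and bars for the group means (n = 3); all panels span the same number of log2 units. Car3 runs from 6.31 to 7.11 in subcutaneous and from 9.71 to 10.24 in intrakidney tumors, while Lipe lies between 8.02 and 8.17 in all 6.

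Car3 (transcript cluster 10490913) encodes carbonic anhydrase III, a cytosolic enzyme that is weak at hydrating carbon dioxide and very abundant in fat. Its log2 RMA value was 10.24, 9.71 and 10.23 in intrakidney tumors 1, 2 and 3 and 6.55, 7.11 and 6.31 in subcutaneous tumors 1, 2 and 3. The groups lay far apart: the lowest intrakidney tumor exceeded the highest subcutaneous tumor 6.05-fold. The difference of the means was 3.41 ± 0.22 (log2, SE of the fit), or 10.6-fold, the largest increase among all 19938 genes, with an SD of 0.31 in intrakidney and 0.41 in subcutaneous tumors.

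Fabp4 (transcript cluster 10497265) encodes the fatty acid carrier that is also known as aP2. It measured 8.89, 8.77 and 9.09 in intrakidney tumors 1, 2 and 3 and 7.08, 6.92 and 6.53 in subcutaneous tumors 1, 2 and 3. The intrakidney values varied less than the subcutaneous ones (SD 0.16 against 0.28, n = 3 each), and the closest pair of tumors from the 2 sites still differed 3.24-fold. The difference of the means was 2.08 ± 0.15 (log2, SE).

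Among the lipid droplet genes, Cidec was the only one with a higher level in every intrakidney tumor. It measured 7.53, 7.44 and 7.59 in intrakidney tumors 1, 2 and 3 and 6.77, 6.91 and 6.88 in subcutaneous tumors 1, 2 and 3. Both groups were tight (SD 0.07 each), and the difference was 0.66 ± 0.08 (log2, SE), or 1.58-fold. Plin1, the perilipin that guards the droplet of fat cells, measured 6.96, 7.17 and 7.29 in intrakidney and 6.75, 7.10 and 7.12 in subcutaneous tumors. Intrakidney tumor 1 lay below subcutaneous tumors 2 and 3, and the difference of 0.15 ± 0.13 was of the size of the spread within the groups (SD 0.16 and 0.20). Plin4, a perilipin that coats small nascent droplets, measured 9.23, 9.22 and 9.09 in intrakidney and 9.37, 9.41 and 9.32 in subcutaneous tumors. The groups were separated by 0.09, and the difference of -0.18 ± 0.07 ran opposite to that of Cidec.

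The hormones also parted. Adipoq measured 6.59, 5.95 and 6.40 in intrakidney tumors 1, 2 and 3 and 5.23, 5.28 and 4.99 in subcutaneous tumors 1, 2 and 3. The difference was 1.14 ± 0.17 (log2, SE), or 2.21-fold, and the closest pair of tumors from the 2 sites differed 1.58-fold. Retn measured 7.33, 7.38 and 7.24 in intrakidney and 6.47, 6.80 and 6.96 in subcutaneous tumors, a difference of 0.57 ± 0.13. Here it was the subcutaneous tumors that varied (SD 0.25 against 0.07), and the highest of them lay 0.28 below the lowest intrakidney tumor. Lep measured 5.50, 5.50 and 5.39 in intrakidney and 5.27, 5.36 and 5.68 in subcutaneous tumors. Subcutaneous tumor 3 was the highest of all 6 and subcutaneous tumor 1 the lowest, and the difference was 0.03 ± 0.11. The mean values of Adipoq and Lep fell under the 40th percentile of all genes on the array, where RMA compresses changes.

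Lipe, which encodes hormone-sensitive lipase, varied least. It measured 8.14, 8.17 and 8.09 in intrakidney and 8.14, 8.07 and 8.02 in subcutaneous tumors, with overlapping groups and a difference of 0.06 ± 0.07 (log2, SE).

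In order of their differences, Car3 was followed by Fabp4, Adipoq, Cidec, Retn, Plin1, Lipe, Lep and Plin4. Neighbors in that order differed by less than the larger of their standard errors for Cidec and Retn, for Plin1 and Lipe, and for Lipe and Lep. The mean was higher in intrakidney tumors for 8 of the 9 genes, against 48% of all genes. The median difference of the 9 genes was 0.57, against -0.0058 over all genes. In 5 of the 9 all intrakidney tumors lay above all subcutaneous tumors, a state found in 8.41% of all genes, and in 1 they all lay below, as in 6.53% of all genes. In the limma fit over all genes (Benjamini-Hochberg adjusted p under 0.05) 3 of the 9 were past the threshold, Car3, Fabp4 and Cidec, all higher, as were 0.130% of all genes. Because the genes were picked from this comparison, these counts and shares are no test of them. Just inside that threshold lay Cidec and just outside it Adipoq, whose difference was larger and whose spread was wider.

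**Figure D2:**
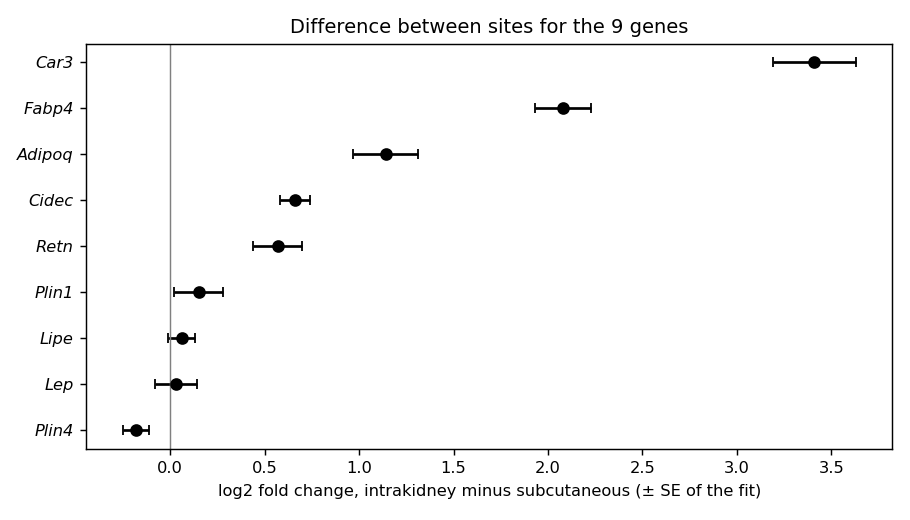
Difference between the sites for each of the 9 genes on the log2 scale, intrakidney minus subcutaneous, with the SE of the limma fit as bars and a line at 0. The values fall from 3.41 for Car3 to -0.18 for Plin4, with Plin1, Lipe and Lep within 0.15 of 0.

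That count moved in both directions with the setting. It was 1 without subcutaneous tumor 1 (Fabp4) and 1 without subcutaneous tumor 2 (Car3). It was 2 (Car3 and Fabp4) without subcutaneous tumor 3, without intrakidney tumor 1 or without intrakidney tumor 3. Without intrakidney tumor 2 it was 3, with Adipoq in place of Cidec. With all 35512 rows in the fit it was 0. It was 4 (Adipoq added) with median centring, with the linear offset or with an intensity trend, and 5 (Adipoq and Retn added) with array weights. Calls over all genes shifted too, from 46 as reported. They were 2, 3 and 4 without subcutaneous tumors 1, 2 and 3, and 21, 31 and 33 without intrakidney tumors 1, 2 and 3. They were 0 with all rows, 62 with median centring, 74 with the offset, 138 with the trend and 624 with array weights. Moves in the count are therefore not read as specific to these genes. The sizes moved less: over the 6 fits that leave out a tumor, the difference of Car3 lay between 3.23 and 3.63 and that of Fabp4 between 1.92 and 2.20.

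Within the intrakidney group, tumor 2 was the lowest for Car3, Fabp4, Cidec and Adipoq and the highest for Retn. Within the subcutaneous group, tumor 3 was the lowest for Car3, Fabp4 and Adipoq, but it was the highest for Retn, Plin1 and Lep. Retn therefore took another order among the tumors of each group than Car3, Fabp4 and Adipoq. Car3, Fabp4 and Adipoq shared the lowest tumor of each group, but Fabp4 ranked the remaining tumors differently. The intrakidney values of Retn spanned only 0.14, so little rests on their order.

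Car3 and Fabp4 lie on the same chromosome, each inside a cluster of related genes, so their neighbors show whether the difference was shared along the chromosome. Car3 is flanked by Car1, which is best known from red cells, on one side and by the widespread Car2 on the other, with Car13 beyond Car1. Car1 measured 5.91, 6.14 and 5.90 in intrakidney and 5.63, 5.81 and 6.19 in subcutaneous tumors, and Car2 measured 9.84, 9.92 and 9.79 against 9.72, 9.87 and 9.72. Their differences of 0.11 ± 0.15 and 0.08 ± 0.08 (log2, SE) stood beside 3.41 for Car3, and the groups overlapped for both. The 6 measured genes among the 4 on either side of Car3 differed by -0.05 (Car13) to 0.21 (Gm9733).

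Fabp4 has Fabp9 and Fabp12, the less studied relatives, as direct neighbors, with the myelin gene Pmp2 and the epidermal gene Fabp5 beyond Fabp9. Fabp5, whose protein can stand in for FABP4 in fat cells, measured 7.95, 7.91 and 8.40 in intrakidney and 7.73, 7.97 and 7.86 in subcutaneous tumors, a difference of 0.23 ± 0.14 (log2, SE). The 8 measured neighbors of Fabp4 differed by -0.14 (Pmp2) to 0.23 (Fabp5). The transcript cluster used for Fabp5, 10585699, is numbered far from those of the other neighbors (10497237 to 10497300). Where its probes lie was not checked, and without it the highest difference was 0.13 (Pag1). With limma, 0 of the 14 neighbors of the 2 genes passed over all genes, and 0 had an unadjusted p under 0.05. These neighbors were chosen by position after the values of Car3 and Fabp4 were known.

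**Figure D3:**
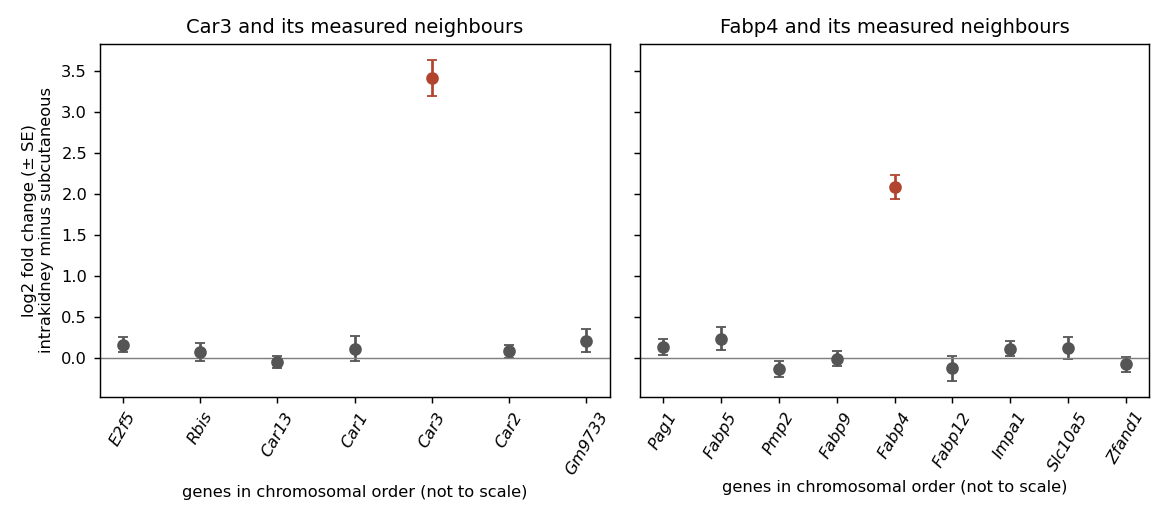
Difference between the sites on the log2 scale (intrakidney minus subcutaneous, bars are the SE) for Car3 with 6 and Fabp4 with 8 measured neighbors, in chromosomal order and not to scale. The neighbors lie between -0.14 and 0.23, while Car3 lies at 3.41 and Fabp4 at 2.08.

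The wider families held few other genes past the threshold. Of the 15 other carbonic anhydrase genes, 0 passed over all genes with limma and 1 had an unadjusted p under 0.05, and their differences lay between -0.09 and 0.21. The hypoxia-induced tumor enzyme gene Car9 measured 6.51, 6.42 and 6.54 in intrakidney and 6.33, 6.33 and 6.20 in subcutaneous tumors (adjusted p = 0.498 over all genes). Of 13 measured relatives of Fabp4 among the intracellular lipid-binding proteins, 1 fell and 0 rose past the threshold, and their differences lay between -0.93 and 1.33. The highest was that of Fabp1, named after its values were seen (1.33 ± 0.73, adjusted p = 0.708 with limma). It measured 4.17, 4.51 and 7.33 in intrakidney and 3.94, 4.04 and 4.04 in subcutaneous tumors, with intrakidney tumor 3 far above the others. The one that fell was Crabp1, which binds retinoic acid. It measured 7.38, 7.77 and 7.64 in intrakidney and 8.53, 8.57 and 8.48 in subcutaneous tumors, a difference of -0.93 ± 0.10 (limma, adjusted p = 0.0261). It passed in 2 of the 6 fits that leave out a tumor (adjusted p from 0.0264 to 0.172), and did not pass without intrakidney tumor 3 or without any of the subcutaneous tumors.

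Other genes of fat storage were read from 9 lists. These hold pathway and family genes, chosen with earlier results of these arrays known, and 130 of their 142 genes were measured. Adjusted over all genes with limma, 1 of these rose and 1 fell, or 1.54%, against 0.231% of all genes. At an unadjusted p under 0.05, 19 were higher and 10 lower, a level that 8.43% of all genes reached. Their median difference was 0.03, against -0.0058 over all genes.

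Of the 14 transcription factor genes of fat cells, 0 passed and 3 were higher at an unadjusted p under 0.05, with a median difference of 0.10. Cebpd, an early factor of fat cell differentiation that is also induced in the acute phase, measured 8.30, 8.14 and 8.64 in intrakidney and 7.64, 7.71 and 7.76 in subcutaneous tumors (0.66 ± 0.13, adjusted p = 0.143). The groups did not overlap, although the difference did not pass. Ebf1, a factor of fat cell precursors and B cells, differed by 0.28 (adjusted p = 0.441), and Mlxipl, a carbohydrate-responsive activator of lipogenesis, by 0.22 (adjusted p = 0.58). Pparg, the master regulator of fat cells, was named after its values were seen. It measured 6.52, 6.55 and 6.68 in intrakidney and 6.29, 6.48 and 6.51 in subcutaneous tumors, a difference of 0.16 ± 0.09.

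Of 13 measured genes that take up and trap fatty acids, 0 passed, with 1 higher and 1 lower at an unadjusted p under 0.05 and a median difference of 0.08. Lpl, the lipase that frees fatty acids from circulating lipoproteins, measured 8.92, 8.51 and 8.82 in intrakidney and 8.20, 7.92 and 7.66 in subcutaneous tumors (0.82 ± 0.16, adjusted p = 0.142). The receptor gene Vldlr differed the other way by -0.38 (adjusted p = 0.325), and Lrp1, a scavenger receptor of lipoprotein remnants, by -0.16 (adjusted p = 0.7).

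Of 19 genes of triglyceride and fatty acid synthesis, 1 rose and 0 fell past the threshold. At an unadjusted p under 0.05, 3 were higher and 4 lower, with a median difference of 0.01. Thrsp, a lipogenic gene of fat and liver also known as Spot 14, measured 7.30, 7.27 and 7.17 in intrakidney and 6.36, 6.68 and 6.55 in subcutaneous tumors, and it rose by 0.72 ± 0.10 (adjusted p = 0.0460). It lost the threshold when any of the 6 tumors was left out (adjusted p from 0.112 to 0.16, difference from 0.63 to 0.79). Me1, which supplies NADPH for lipogenesis, differed by -0.43 (adjusted p = 0.125) and the phosphatidate phosphatase gene Lpin1 by -0.48 (adjusted p = 0.262), so that genes of the same pathway lay on both sides of 0.

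Of 15 measured genes of lipolysis, 0 passed, with 1 higher and 1 lower at an unadjusted p under 0.05 and a median of 0.02. Pde3b, through which insulin restrains lipolysis, differed by -0.52 (adjusted p = 0.483) and Mgll, which cleaves the last fatty acid, by 0.15 (adjusted p = 0.654). Ces1d, a carboxylesterase gene of fat, liver and kidney, measured 5.56, 5.10 and 6.95 in intrakidney and 4.55, 4.94 and 4.81 in subcutaneous tumors (adjusted p = 0.524), with intrakidney tumor 3 far above the other two.

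Of 13 measured genes of other droplet and caveola proteins, 0 passed and 1 was lower at an unadjusted p under 0.05, with a median of -0.04. Hsd17b11, a droplet-bound dehydrogenase gene, differed by -0.22 (adjusted p = 0.486). Its liver relative Hsd17b13 measured 5.80, 5.96 and 7.33 against 5.55 to 5.69 (adjusted p = 0.654), and the liver gene Cideb differed by 0.21 (adjusted p = 0.788). Plin2, the perilipin of most cells that hold fat, was named after its values were seen and measured 13.05 to 13.11 in intrakidney and 13.12 to 13.13 in subcutaneous tumors.

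Of 16 measured other secreted products of fat, 0 passed over all genes, but 7 were higher and 0 lower at an unadjusted p under 0.05, with a median of 0.31. Hp, which encodes the hemoglobin-binding acute phase protein haptoglobin made by liver and fat, measured 9.05, 8.89 and 10.61 in intrakidney and 6.81, 7.14 and 7.31 in subcutaneous tumors (2.43 ± 0.42, adjusted p = 0.103). It passed without intrakidney tumor 3. Lcn2, a siderophore-binding protein gene of inflamed epithelium, neutrophils and fat, measured 12.10, 12.00 and 12.96 against 11.25, 11.11 and 11.02 (1.22 ± 0.24, adjusted p = 0.147) and likewise passed without intrakidney tumor 3. Nrg4, a growth factor gene of brown fat, differed by 0.31 (adjusted p = 0.209). Of 14 measured receptor and insulin pathway genes, 0 passed, with 2 higher and 2 lower at an unadjusted p under 0.05 and a median of -0.07. The growth hormone receptor gene Ghr differed by 0.99 ± 0.22 (adjusted p = 0.202) and passed without intrakidney tumor 3, the chemerin receptor gene Cmklr1 by 0.29 (adjusted p = 0.463), and Cdh13, whose product binds adiponectin, by -0.29 (adjusted p = 0.468).

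**Figure D4:**
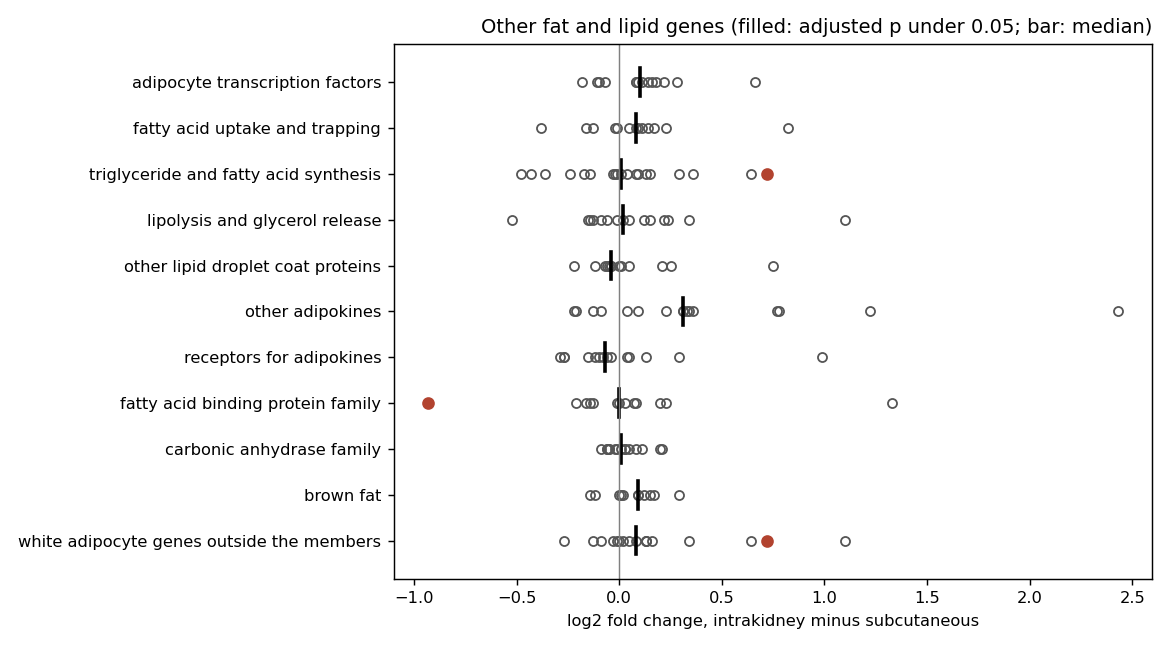
Difference between the sites on the log2 scale for each measured gene of 11 lists of fat and lipid genes that leave out the 9 genes, with filled points for genes past an adjusted p of 0.05 and a bar at the median of each list. The medians lie between -0.07 and 0.31, and only Thrsp, which is in 2 lists, and Crabp1 are filled.

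Markers of other cell types were measured on the same arrays. White fat genes other than the 9, of which 17 of 20 were measured, had a median difference of 0.08, with Thrsp as the only one past the threshold and 3 higher at an unadjusted p under 0.05. Their mean level was 6.88, 7.02 and 7.13 in intrakidney and 6.76 to 6.87 in subcutaneous tumors. Among them Pck1, which supplies glycerol for triglyceride in fat and is a tubule gene as well, differed by 0.64 (adjusted p = 0.436). The insulin-responsive glucose transporter gene Slc2a4, named after its values were seen, differed by -0.27 ± 0.14. The label of adipocyte lipid genes therefore holds for what these genes are known for, while neither the 9 genes nor the other white fat genes were higher throughout. Brown fat genes had a median of 0.09, with 0 of 11 past the threshold and 0 at an unadjusted p under 0.05. The largest difference there was that of the fatty acid elongase gene Elovl3 (0.29, adjusted p = 0.736). Fat progenitor and mesenchymal genes had a median of 0.09 and 0 of 11 past the threshold, with 2 higher and 1 lower at an unadjusted p under 0.05. The adhesion molecule gene Icam1 differed by 0.41 (adjusted p = 0.17) and the surface sialomucin gene Cd34 by 0.33 (adjusted p = 0.331), each without overlap between the groups. The progenitor receptor gene Pdgfra differed by -0.38 (adjusted p = 0.509), with overlap. The mean was higher in intrakidney tumors for 8 of the 11.

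Car3 is also a gene of slow muscle fibers and hepatocytes. The 9 slow muscle genes differed by -0.09 to 0.06, with a median of -0.04. All but 1 had a lower mean in intrakidney tumors, with 0 past the threshold and 0 at an unadjusted p under 0.05. Of 16 general skeletal muscle genes 0 passed and 1, Acta1, was lower at an unadjusted p under 0.05, with a median of -0.09. Hepatocyte markers ran high in a single tumor: over 9 measured genes the list mean was 5.75 in intrakidney tumor 1, 6.14 in tumor 2 and 8.63 in tumor 3, against 5.65 to 5.93 at the subcutaneous site. Alb, which encodes serum albumin, measured 5.88, 7.20 and 11.83 in intrakidney and 5.50 to 5.60 in subcutaneous tumors. All 9 had a higher intrakidney mean, with 0 past the threshold and 0 at an unadjusted p under 0.05. Cps1, a urea cycle gene, differed by 0.98 and the cytochrome gene Cyp3a11 by 0.47 (adjusted p = 0.75 and 0.77). Intrakidney tumor 1, with its hepatocyte list mean inside the subcutaneous range and its Alb value slightly above it, had a Car3 value of 10.24, as high as the 10.23 of intrakidney tumor 3. The same tumor had the highest Adipoq value of all (6.59). Whether muscle fibers or hepatocytes contributed to the Car3 values was not tested.

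Proximal tubule markers followed a similar order, with a mean over 20 measured genes of 6.52 in intrakidney tumor 1, 6.91 in tumor 2 and 7.39 in tumor 3, against 6.44 to 6.55 at the subcutaneous site. Of these, 0 passed and 5 were higher at an unadjusted p under 0.05. Cyp2e1, a cytochrome gene of liver, kidney and fat, did not follow that order, and neither did some other genes of the list. Cyp2e1 measured 8.36, 7.41 and 10.02 against 5.87 to 6.24 (2.55 ± 0.57, adjusted p = 0.209). The tubule gene Keg1 differed by 0.96 (adjusted p = 0.465). The subcutaneous tumors give the background of this list, and intrakidney tumors 2 and 3 lay above it. Intrakidney tumor 1 was chosen with its values in view and set alone against the mean of the 3 subcutaneous tumors. As 1 tumor it has no spread of its own, and its differences restate the values above: Car3 differed by 3.59, Fabp4 by 2.05, Adipoq by 1.42, Cidec by 0.67 and Retn by 0.58.

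Fabp4 is also a gene of capillaries and macrophages. Of 15 capillary genes 1 rose and 0 fell, with 7 higher and 1 lower at an unadjusted p under 0.05 and a median of 0.14. Emcn, a sialomucin gene of capillaries and veins, measured 8.81, 9.01 and 9.05 in intrakidney and 8.25, 8.10 and 8.35 in subcutaneous tumors (0.72 ± 0.10, adjusted p = 0.0460), and did not pass when any of the tumors was left out (adjusted p from 0.0606 to 0.247). The angiopoietin receptor gene Tek differed by 0.40 (adjusted p = 0.26) and the water channel gene Aqp1 by -1.04 (adjusted p = 0.114). The mean level of the list was 8.43 to 8.48 in intrakidney and 8.27 to 8.36 in subcutaneous tumors. Of 13 measured macrophage genes 0 passed and 3 were higher at an unadjusted p under 0.05, with a median of 0.09 and list means of 10.46 to 10.67 against 10.35 to 10.41. Cd14, Cd163 and Mrc1 differed by 0.44, 1.04 and 0.39 (adjusted p = 0.0744, 0.0744 and 0.212). The means of both lists stood above the subcutaneous range in all 3 intrakidney tumors. A list mean and the difference of a single gene are unlike measures, and the part of these cells in the difference of Fabp4 was not tested.

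Mesothelial genes, which mark the lining that covers abdominal organs and their fat, had a median of 0.21, with 0 of 10 past the threshold and 3 higher at an unadjusted p under 0.05. Upk1b measured 6.98, 6.90 and 6.93 in intrakidney and 5.96, 6.10 and 6.38 in subcutaneous tumors (0.79 ± 0.11, adjusted p = 0.0533). The list mean was 7.64 to 7.88 against 7.41 to 7.62. Skin and sebaceous gland genes had a median of -0.01, with 0 of 13 past the threshold and 1, the sebaceous receptor gene Mc5r, lower at an unadjusted p under 0.05. Whether any of these tissues carried the RNA of the 9 genes was not tested.

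**Figure D5:**
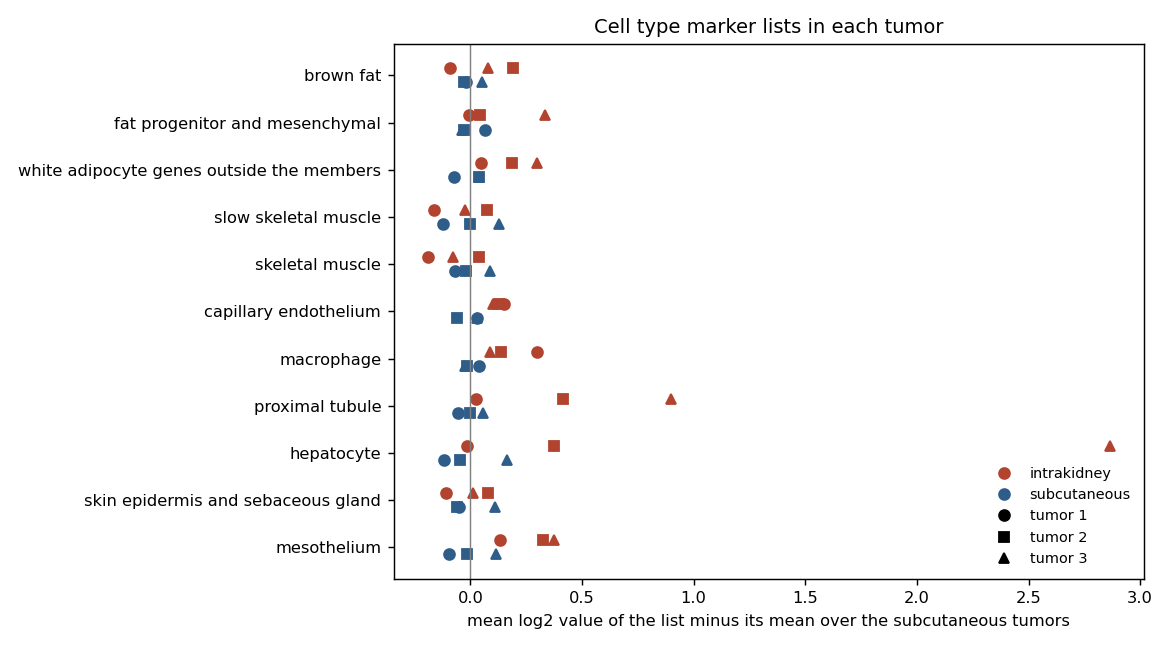
Mean log2 value of each cell type marker list in each tumor, minus the mean of that list over the 3 subcutaneous tumors, with intrakidney tumors in red, subcutaneous tumors in blue and symbols for tumor number. Hepatocyte and proximal tubule markers stand out in intrakidney tumor 3 (8.63 and 7.39 as list means), while intrakidney tumor 1 lies near the subcutaneous tumors for both.

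To find genes that ran like these, each gene's mean over the 6 arrays was subtracted and the root mean square distance between profiles was taken in log2 units, so that both shape and size count. Genes whose name is only an accession or provisional identifier were passed over. Nearest to Car3 were Saa3, an acute phase protein gene of fat and macrophages, at 0.69, and then Fabp4 at 0.70, Hp at 0.74 and Arg1, which breaks down arginine, at 0.80. The cytochrome gene Cyp2e1 followed at 0.84, the lubricin gene Prg4 at 0.90, the protease inhibitor gene Serpinb2 at 0.91, the lipoxygenase gene Alox15 at 0.94 and the alarmin gene Il33 at 1.02. Saa3 measured 10.66, 9.31 and 10.19 in intrakidney and 7.57, 8.59 and 7.63 in subcutaneous tumors, with the lowest intrakidney and the highest subcutaneous value in tumor 2, as for Car3.

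Nearest to Fabp4 were Mgp, an inhibitor of calcification, at 0.36, Alox15 at 0.37 and Arg1 at 0.42. The chemokine gene Ccl6, Prg4 and Il33 each lay at 0.45. Vsig4, a complement receptor gene of resident macrophages, and Ifitm6, of the interferon-induced transmembrane family, each lay at 0.48. Adipoq was the nearest of the other members, at 0.50. Mgp measured 8.23, 8.49 and 8.69 in intrakidney and 7.17, 6.87 and 6.98 in subcutaneous tumors.

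The mean profile of the 9 genes was most closely followed by Fcna, a ficolin gene of macrophages, by C5ar1, the receptor gene of complement C5a, and by Lrg1, a secreted acute phase glycoprotein gene, each at 0.08. The laminin chain gene Lamb3, the glucocorticoid-activating enzyme gene Hsd11b1 and Wfdc17 each lay at 0.10, and the guanine deaminase gene Gda and the aggrecan-cleaving protease gene Adamts5 at 0.11. Cidec lay at 0.11 from that mean, Adipoq and Retn at 0.22, Fabp4 at 0.63 and Car3 at 1.28, so Cidec was the member nearest to the mean profile and Car3 the farthest. Such nearness over 6 arrays of 2 groups is a description, since a gene that differs between the groups by a like amount is near by construction.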

How the data were processed

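RNA of 6 tumors, 3 per site, was measured on Mouse Gene 1.0 ST arrays. The deposited values are log2 expression values made by the authors. The submitters' processing notes name RMA and affy, without versions. The values themselves showed the log2 scale. Array medians were 7.08 to 7.11, and precision is limited by having 3 arrays per site. Rows paired with exactly 1 gene symbol were kept (21789 of 35512), and for 999 genes with several rows the row with the highest mean was used.

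The fit over all genes used limma 3.58.1 under R 4.3.3 (a mean per group, eBayes, two-sided, Benjamini-Hochberg over 19938 genes, threshold 0.05), a fit tested on simulated data. P-values weigh the difference between the sites against the spread between these mice, which eBayes moderates over all genes. The 9 genes and all lists were chosen with earlier results of these data known. Named were every list gene past the threshold, up to 3 further genes of a list in order of p, and the 8 genes nearest in profile. The labels named no pairing of the mice by tumor number. Correlations of same-numbered deviations were 0.37, -0.16 and 0.10, and those of unlike numbers -0.44 to 0.43. With 3 tumors per site these cannot settle whether the numbers pair the mice. Protein sequences were not analysed here. List genes without a row of their own, among them Cfd, Adrb3 and Acsl1, were not analysed here. Other settings tried are in the closing section.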

Additional observations from a re-analysis of the deposited data

How the results depend on the processing

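Over 16 other settings the difference of Car3 stayed between 3.21 and 3.63, that of Fabp4 between 1.92 and 2.20, that of Cidec between 0.60 and 0.70 and that of Retn between 0.44 and 0.68, all within the spread between replicates. Adipoq differed by 0.88 with an offset of 16 on the linear scale, which compresses dim genes, and by 1.42 with intrakidney tumor 1 alone against the subcutaneous tumors, and it was left out with Lep when genes under the 40th percentile were dropped. Plin4 stayed below 0, at -0.26 with array weights, while Plin1 (-0.03 to 0.24) and Lep (-0.05 to 0.15) changed sign. The median of the 9 genes was 0.44 to 0.68 when a tumor was left out, lowest without subcutaneous tumor 1. Quantile normalization and median centring moved the median of all genes from -0.0058 to -0.0073 and -0.0094. The number of genes past the threshold, 46 (26 higher, 20 lower), was 101 without dim genes, 74 with the offset, 138 with an intensity trend and robust prior, 624 with array weights and 2 to 33 when a tumor was left out. It was 30 with intrakidney tumor 1 alone, chosen with its values in view, where only the subcutaneous arrays supply the spread and the lone tumor is assumed to vary like them. It was 0 with every row tested, though 1377 of the genes kept an unadjusted p under 0.05 in limma. The replicate number as a block gave 0 genes past the threshold (1825 unadjusted) and 0 of the 9, with no change in any difference. Of the 130 pathway and family genes, 2 passed as reported, 5 with the trend, 17 with array weights, 0 with every row tested (25 unadjusted), 0 with the replicate block (33 unadjusted) and 0 to 3 when a tumor was left out. The cause of these shifts was not tested.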
